A study of Mus musculus with 36 samples.

Results

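Line 287 is 1 of 3 mouse lymphoma cell lines in a study of mutant TRP53 proteins, and its response to the MDM2 inhibitor nutlin-3a is described here. The 12 libraries of 287, of 36 in the series, were taken as all those whose label names this line. They form 6 nutlin libraries and 6 untreated libraries, paired by the construct the cells expressed. The constructs were a negative control and 5 mutants of TRP53, which the labels call V170M, R270H, R246Q, I192S and G280. The labelled background of all lines is Em-myc, a Myc transgene under an immunoglobulin heavy chain enhancer that causes B cell lymphoma in mice, so treated and untreated cells carry it alike. Nutlin cultures received 5 µM nutlin-3a for 12 hours together with 25 µM QVD-OPH, a broad caspase inhibitor. The labels do not say whether untreated cultures received QVD-OPH, so an effect of the inhibitor and an effect of nutlin cannot be told apart. The same construct, treatment and background groups exist in the lines AH47A and 621, which serve below for comparison only. Each construct has 1 library per treatment, so that the 6 pairs differ in construct, and the labels name no independent cultures of a construct. P-values below therefore measure the spread of the response over 6 constructs in 1 line. Per the design text the mutant proteins are human, whereas the counts are of mouse genes.

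The p53 protein is a transcription factor that is kept low by MDM2, a ubiquitin ligase that p53 itself induces. Nutlin-3a occupies the p53-binding pocket of MDM2, so that wild-type p53 accumulates and switches on genes for cell cycle arrest, cell death, DNA repair and metabolism. Many cell cycle genes are lowered by p53 through the inhibitor p21 and the complexes it controls at their promoters. Mutant p53 proteins can enter tetramers with the wild-type protein and hinder it from binding DNA.

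The libraries of 287 held 6454096 to 9689091 counts after nutlin and 6584334 to 9698782 counts untreated. Treatment separated them along the first principal component (85.8% of the variance), and I192S and V170M stood apart from the other constructs along the second (4.21%). No pair of libraries agreed within sampling noise. Of the markers of other cells, Cd3g, Cd4 and Cd8a (T cells) and Elane, S100a8, S100a9 and Ly6g (myeloid cells) were at 0, and those of erythroid, stromal and NK cells summed to at most 3.43 CPM (the count scaled by library size) in any library. The 8 B lineage markers summed to 4046 to 4482 CPM in nutlin libraries, against 3360 to 3732 CPM in untreated libraries, with none at 0. The 10 T cell markers summed to 30.9 to 36.6 CPM in nutlin libraries, against 18.9 to 25.5 CPM in untreated libraries, led by Zap70. The 12 myeloid markers summed to 36.2 to 59.1 CPM in nutlin libraries, against 16.9 to 24.3 CPM in untreated libraries, led by Itgam. The part of these markers in the results below was not tested.

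Trp53 itself (NCBI gene 22059, chromosome 11, 69580348 to 69591873 of GRCm38) had 1329, 1153, 979, 808 and 2049 CPM with G280, I192S, R246Q, R270H and V170M and 448 CPM with the control after nutlin. Untreated cells had 1981, 1719.9, 1348, 1215, 2586 and 291 CPM in the same order of constructs. Every mutant library was above both control libraries, and the level fell short of its untreated pair in all 5 mutants while it exceeded it in the control. Over the 6 pairs the difference did not pass the test (log2 -0.33 ± 0.14, adjusted p = 0.0621). Without the control pair the remaining 5 gave -0.51 (adjusted p = 2.95e-09). Reads of the endogenous gene and of the construct are not told apart by these counts.

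Nutlin changed most of the expressed genes of 287. Of 11208 genes tested, 8862 (79.1%) passed the test of the nutlin response, with 4444 (39.7%) higher and 4418 (39.4%) lower after nutlin. A gene passed, or was called, where the adjusted p of edgeR's quasi-likelihood test with construct as a block was under 0.05. All changes are log2 fold changes ± standard error, nutlin minus untreated, and p-values are adjusted by Benjamini and Hochberg over all genes tested. Against such a share a call alone says little about a gene list, so the counts of genes past 1 in every construct are given beside it. The median absolute change of the called genes was 0.59. Counts were scaled relative to each library, and the median change over all genes tested was -0.0028. A change in RNA per cell that all genes share would not show in such values. The even split of higher and lower calls is therefore relative to this centre.

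The 6 constructs shared most of the response. Of the called genes, 8035 (71.7% of those tested) had the same sign in all 6 pairs, 4054 of them higher and 3981 lower, while 827 did not. Past 1 on the log2 scale in every pair, the response was lopsided. It held 858 genes that rose (7.66% of those tested) and 271 that fell (2.42%). Past 2 in every pair it held 353 that rose and 6 that fell, and past 3 it held 162 and 0. At the edge of the shared set, Fh1 (smallest pair difference 1.001 in size, lower) and C1ql1 lay just inside, and Wdr77 and Agrn (0.998 each) just outside. Pair differences in these counts are of log2 CPM with a prior count of 2, which understates changes of genes with few reads.

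The sizes differed between constructs. The control had 1613 genes higher and 1307 lower by more than 1, G280 had 1391 and 923, I192S had 1370 and 937, R246Q had 1288 and 717, R270H had 1428 and 941, and V170M had 1128 and 506. Over the 858 shared risers the median pair difference was 1.94 with V170M, 2.15 with R246Q, 2.19 with I192S, 2.24 with R270H, 2.25 with G280 and 2.48 with the control. Over the 271 shared fallers it was -1.29, -1.504, -1.64, -1.70, -1.61 and -1.97 in the same order. V170M, the library pair with the most Trp53 reads, had the smallest difference of the 6 in 388 of the 858 risers and in 168 of the 271 fallers. The control had the largest in 423 risers and in 168 fallers. Without the V170M pair, 422 genes were lower past 1 in all remaining pairs.

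**Figure D1:**
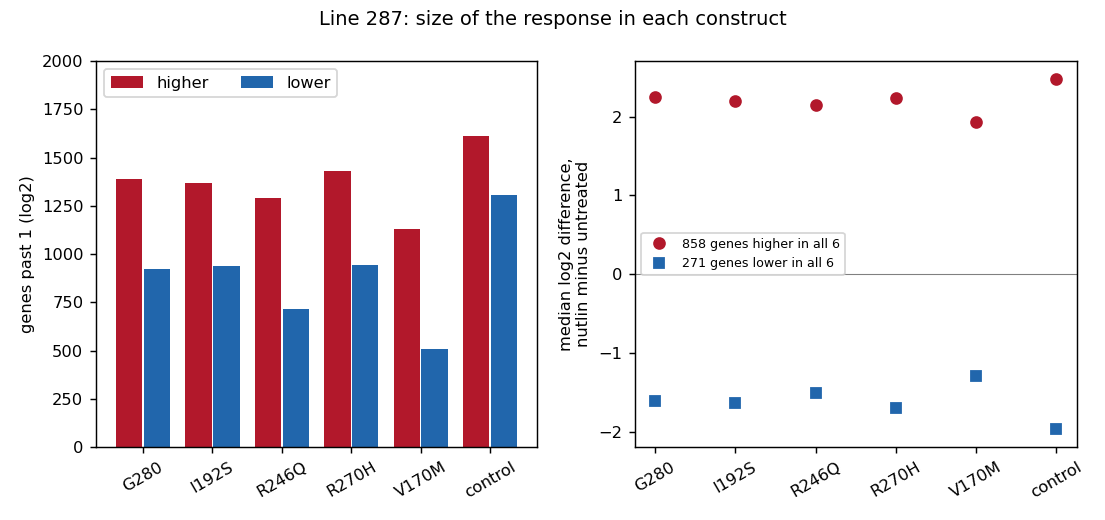
Left, number of tested genes with a pair difference past 1 (log2, nutlin minus untreated) in each construct of line 287, in bars for genes higher and lower. Right, median pair difference over the 858 genes higher and the 271 genes lower past 1 in all 6 constructs; V170M lies nearest to 0 (1.94 and -1.29) and the control farthest (2.48 and -1.97).

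The feedback genes of p53 rose in 8 of the 11 tested members, and 2 fell, with a list median of 1.61, against -0.0028 over all genes tested. Mdm2, the inhibitor that nutlin occupies (NCBI gene 17246, chromosome 10, 117688875 to 117710758), had a median of 1044 CPM (716 to 1428) in nutlin cells, against 165 CPM (146 to 177) in untreated cells, with the lowest and highest library in parentheses here and for other genes. The 2 treatments did not overlap, and the lowest nutlin library was V170M. It rose 6.34-fold (log2 2.66 ± 0.10, adjusted p = 1.45e-08). The gene of cyclin G1, Ccng1, rose most of the list (log2 3.44 ± 0.07, adjusted p = 1.12e-13), to 699 CPM (549 to 869) in nutlin cells, against 64.98 CPM (55.8 to 73.5) in untreated cells. Trp53inp1, whose product works with p53 in death and autophagy, rose by 3.01 ± 0.08, Rchy1, a ubiquitin ligase for p53, by 2.13 ± 0.10, and Mdm4, the relative of MDM2 that masks p53, by 2.01 ± 0.14. The phosphatase gene Ppm1d rose by 1.61 ± 0.06. The ubiquitin ligase genes that fell were Siah1b (-0.67 ± 0.11) and Cop1 (-0.38 ± 0.08). Of the 11 members, 6 rose past 1 in every construct.

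Arrest genes rose in 9 of 13 tested members and fell in 3, with 6 higher past 1 in every construct. Cdkn1a, which encodes the cyclin-dependent kinase inhibitor p21 (NCBI gene 12575, chromosome 17, 29090979 to 29100722), had 400.05, 508, 404, 477 and 298 CPM with G280, I192S, R246Q, R270H and V170M and 609 CPM with the control after nutlin. In untreated cells it had 4.77, 3.08, 5.27, 5.82, 3.57 and 5.02 CPM in the same order. The nutlin libraries were all far above the untreated ones, with V170M the lowest. The change was 96.001-fold (log2 6.58 ± 0.13, adjusted p = 6.52e-15). Zmat3, an RNA-binding zinc finger protein, rose by 4.85 ± 0.13, Psrc1, a microtubule-associated protein, by 4.56 ± 0.15, and Plk2, a polo-like kinase, by 3.40 ± 0.10. Gadd45a rose by 1.90 ± 0.19, while its relative Gadd45g fell (-1.15 ± 0.12). Sfn, the gene of 14-3-3 sigma, fell to 2.02 CPM (1.26 to 3.27) in nutlin cells, against 6.20 CPM (5.02 to 6.54) in untreated cells, and Plk3 fell by 0.65 ± 0.14.

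A window at an annotated start of Cdkn1a matches the p53 site, a pair of half-sites with a spacer of at most 13 bases. Cdkn1a rose most among the arrest genes, and the window was chosen from those that hold a match. The window covers 250 bases before and 50 after the RefSeq start of GRCm38.p6 (chr17:29090729-29091028, + strand), and capitals mark the match, spacer included, from 73 to 42 bases before the start.
Cdkn1a: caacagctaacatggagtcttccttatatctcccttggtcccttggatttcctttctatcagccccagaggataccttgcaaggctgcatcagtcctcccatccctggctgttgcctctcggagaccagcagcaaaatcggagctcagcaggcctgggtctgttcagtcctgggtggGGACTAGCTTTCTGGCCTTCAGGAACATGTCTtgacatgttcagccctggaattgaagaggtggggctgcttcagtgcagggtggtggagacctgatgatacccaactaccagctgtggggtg
Such a match was rare. It occurred in 20 of 27025 genes with a window (0.0740%), in 3 of the 8620 tested genes with one, and in 2 of 663 shared risers (0.302%). None of the windows of the feedback, apoptosis, repair, metabolism or other p53 lists held it, which says only that these letters are not in this window.

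**Figure D2:**
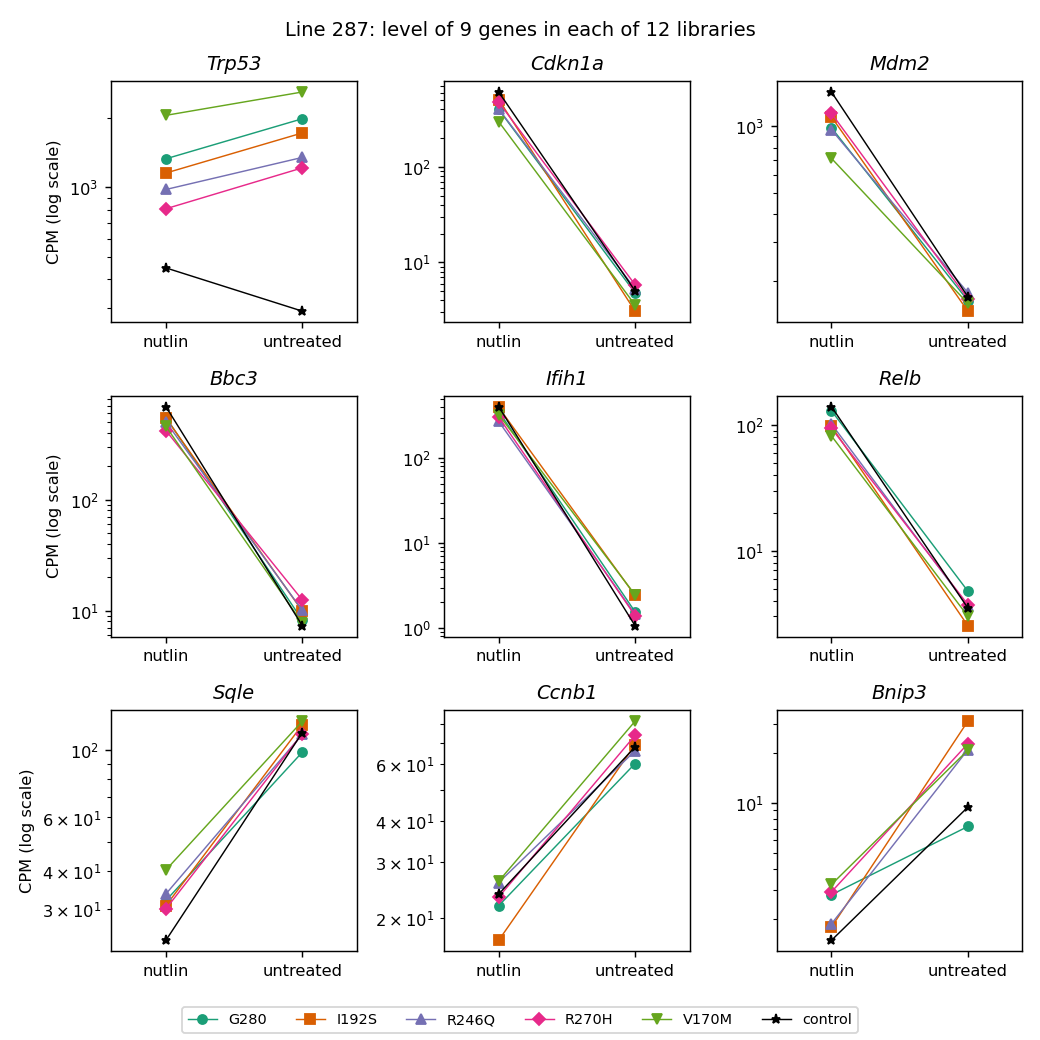
CPM on a log scale of 9 genes in each of the 12 libraries of line 287, nutlin left of untreated, with a line joining the pair of each construct. Trp53 is above both control libraries in all mutant libraries, Cdkn1a, Mdm2, Bbc3, Ifih1 and Relb are higher after nutlin in all 6 pairs, and Sqle, Ccnb1 and Bnip3 are lower.

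Death genes among the p53 targets rose in 15 of 19 tested members and fell in 3, with 10 higher past 1 in every construct and a median of 1.29. Bbc3, the gene of the BH3-only protein PUMA, had 523 CPM (419 to 689) in nutlin cells, against 9.05 CPM (7.30 to 12.5) in untreated cells and rose by 5.79 ± 0.15. Pmaip1, the gene of NOXA, had 698 CPM (556 to 851) in nutlin cells, against 12.3 CPM (11.6 to 14.4) in untreated cells and rose by 5.79 ± 0.07. The treatments did not overlap for either gene, and the 6 pair differences of Pmaip1 spanned only 5.55 to 6.12. Bcl2l11, which encodes BIM, rose by 2.02 ± 0.09 and the effector Bax by 1.73 ± 0.06. Among surface receptors that signal death, Tnfrsf10b, a TRAIL receptor, rose by 3.60 ± 0.16. Eda2r, a receptor for the A2 form of ectodysplasin, had 1094 counts over the 6 nutlin libraries, against 1 over the 6 untreated libraries, a depth-scaled ratio of 1176 (95% counting interval 211 to 46486). Fas, the receptor of FAS ligand, had 650 counts over the 6 nutlin libraries, against 1 over the 6 untreated libraries, a depth-scaled ratio of 699 (95% counting interval 125 to 27637). Phlda3, an inhibitor of AKT, rose by 8.74 ± 0.50. The members that fell were Steap3 (-1.20 ± 0.06), Bid (-0.73 ± 0.07) and Bnip3l (-0.52 ± 0.12).

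The BCL2 family as a whole was split evenly, with 6 of 12 tested members higher and 6 lower, near the share over all genes. Only 3 were lower without the control pair, without the R270H pair or by DESeq2. All 4 that rose past 1 in every construct, Bbc3, Pmaip1, Bcl2l11 and Bax, promote death. Of the survival genes, Mcl1 fell by 0.37 (adjusted p = 3.57e-06), Bcl2 changed by -0.58 ± 0.25 and Bcl2l1 by -0.32 ± 0.13. The caspase and apoptosome list rose in 12 of 19 and fell in 5, with 1 higher past 1 in every construct, against 7.66% of all genes. Casp4, an inflammatory caspase, rose by 5.39 ± 0.71 to 3.54 CPM (2.52 to 6.52) in nutlin cells, against 0.107 CPM (0 to 0.112) in untreated cells, while the initiator Casp9 fell (-1.33 ± 0.12), as did Cycs, cytochrome c (-0.998 ± 0.07).

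Repair targets rose in 6 of 13 and fell in 4, near the shares over all genes (39.7% and 39.4%), with 5 higher past 1 in every construct. Ercc5, the nucleotide excision repair nuclease XPG, had 248 CPM (164 to 355) in nutlin cells, against 20.8 CPM (17.4 to 22.1) in untreated cells and rose by 3.57 ± 0.09. Polk, a translesion polymerase, rose by 2.66 ± 0.09 and Ddit4, an inhibitor of mTOR signalling, by 1.81 ± 0.13. Polh, another translesion polymerase, fell by 0.60 ± 0.05, and Xrcc5, a DNA end-binding subunit, by 0.53 ± 0.06. Metabolic targets rose in 12 of 16 and fell in 4, with 7 higher past 1 in every construct. Ak1, an adenylate kinase, rose by 8.62 ± 0.80, Ephx1, a microsomal epoxide hydrolase, by 7.78 ± 0.32, Lpin1, a phosphatidate phosphatase, by 4.88 ± 0.25 and Sesn2, a stress-induced sestrin, by 4.62 ± 0.10. Sesn1, of the same family, fell (-0.70 ± 0.08), and so did Tigar (-0.83 ± 0.07), Gpx1 (-1.04 ± 0.07) and Gls2 (-1.06 ± 0.21), although Gls2 overlaps another gene. Among 28 other targets 19 rose and 7 fell, with 13 higher past 1 in every construct. Zfp365 had 1602 counts over the 6 nutlin libraries, against 2 over the 6 untreated libraries, a depth-scaled ratio of 861 (95% counting interval 238 to 7115), and the cytokine gene Lif had 205 counts over the 6 nutlin libraries, against 1 over the 6 untreated libraries, a depth-scaled ratio of 220.3 (95% counting interval 39.1 to 8745). Hexim1, an inhibitor of transcription elongation, fell most (log2 -1.58 ± 0.10, adjusted p = 4.66e-08).

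The interferon response was the gene group with the largest median change of all lists examined. Interferons are cytokines that, through receptors on the cell surface, switch on antiviral genes in the cells that sense them. In 287, 37 of 38 tested members rose and none fell, against 39.7% of all genes that rose, and 34 rose past 1 in every construct. The list median was 4.95, and 4.95 also with the 2 members without untreated counts at their lower bound. Ifit1, which binds foreign RNA ends, had 481 CPM (407 to 579) in nutlin cells, against 0.268 CPM (0.111 to 0.582) in untreated cells, and rose by log2 10.63 ± 0.34, adjusted p = 9.39e-18. Oasl1 had 239 CPM (183 to 325) in nutlin cells, against 0.114 CPM (0.103 to 0.304) in untreated cells, and rose by 10.49 ± 0.38. Rsad2, the antiviral enzyme viperin, had 202 CPM (157 to 251) in nutlin cells, against 0.158 CPM (0 to 0.223) in untreated cells, and rose by 10.39 ± 0.51. In each of these 3 genes every nutlin library was far above every untreated one. Isg15, a ubiquitin-like modifier, had 3018 counts over the 6 nutlin libraries, against 3 over the 6 untreated libraries, a depth-scaled ratio of 1081 (95% counting interval 369.6 to 5246). Ifit3 had 1203 counts over the 6 nutlin libraries, against 1 over the 6 untreated libraries, a depth-scaled ratio of 1293 (95% counting interval 232 to 51113), with a near-identical copy in Ifit3b. The member that did not pass the test was Samhd1 (log2 0.07 ± 0.05, adjusted p = 0.149).

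Sensors and factors of the pathway moved unevenly, with 14 of 22 higher and 6 lower, and 6 higher past 1 in every construct. Ifih1, which encodes the double-stranded RNA sensor MDA5, had 341 CPM (271 to 405) in nutlin cells, against 1.5002 CPM (1.06 to 2.46) in untreated cells and rose by 7.59 ± 0.16. Ddx58, the sensor RIG-I, rose by 4.07 ± 0.11, with I192S apart from the other pairs at 4.53. Irf7 rose by 4.40 ± 0.32 and Irf9 by 2.47 ± 0.10, while Stat2 rose by 0.28 ± 0.07. The receptor gene Ifnar1 fell (-0.31 ± 0.05), as did the adaptor genes Tmem173, which encodes STING (-0.81 ± 0.08), and Mavs (-0.24 ± 0.05). Ifna4, an interferon alpha gene with near-identical copies, had 630 counts over the 6 nutlin libraries, against 0 over the 6 untreated ones. That is at least 226-fold higher, taking 3 counts over the untreated group as the floor. The helicase gene Ddx60 (893 counts after nutlin, against 0 untreated) was at least 319.9-fold higher, the chemokine gene Ccl5 (816 against 0) at least 292-fold and the tachykinin receptor gene Tacr2 (758 against 0) at least 272-fold. Such intervals and floors cover counting error only.

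NF-kB targets rose in 18 of 19 tested members, with 13 higher past 1 in every construct and a median of 2.48. NF-kB is a family of transcription factors that drives inflammatory genes and its own inhibitors. Tnfaip3, the inhibitor A20, had 73.6 CPM (64.3 to 92.04) in nutlin cells, against 1.05 CPM (0.304 to 1.90) in untreated cells and rose by 6.06 ± 0.23. Relb, a subunit, had 99.7 CPM (81.8 to 139.9) in nutlin cells, against 3.56 CPM (2.53 to 4.77) in untreated cells and rose by 4.91 ± 0.11. The inhibitor genes Nfkbia and Nfkbie rose by 2.06 ± 0.07 and 4.11 ± 0.08. Tnf, the tumour necrosis factor gene, rose by 5.47 ± 0.80, to 4.07 CPM (3.38 to 4.83) in nutlin cells, against 0 CPM (0 to 0.223) in untreated cells. Traf3, which restrains the non-canonical branch, was the one member that fell (log2 -0.50 ± 0.04, adjusted p = 2.12e-08). Cxcl10, a chemokine gene that interferon and NF-kB both induce, had 10197 counts over the 6 nutlin libraries, against 1 over the 6 untreated libraries, a depth-scaled ratio of 10960.0 (95% counting interval 1967 to 432939), the highest fold change among all genes by the naming rule.

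The window of Cxcl10, the gene with the highest fold change, is an example of the NF-kB consensus. This degenerate motif was searched on both strands, and the window was chosen from those that hold it. Capitals mark its matches. Coordinates are of GRCm38.p6, and the window runs in the direction of the gene.
Cxcl10 (chr5:92348840-92349139, - strand): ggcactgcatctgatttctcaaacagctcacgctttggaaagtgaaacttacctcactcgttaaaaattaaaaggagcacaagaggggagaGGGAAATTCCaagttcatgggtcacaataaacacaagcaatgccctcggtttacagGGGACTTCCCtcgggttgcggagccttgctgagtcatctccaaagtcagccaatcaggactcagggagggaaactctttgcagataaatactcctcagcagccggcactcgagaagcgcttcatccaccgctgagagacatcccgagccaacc
The matches lay at 159 to 150 and at 103 to 94 bases before the start. The consensus occurred in 8 of 15 NF-kB targets with a window (53.3%), in 9.05% of the 663 shared risers and in 5.85% of the 205 shared fallers, against 5.96% of the 8620 tested genes with a window. In the interferon response list 2 of 29 genes with a window held it. A match is a description of the sequence and not of binding.

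Antigen presentation genes rose in 13 of 19 and fell in 5, with 8 higher past 1 in every construct. Tap1, which carries peptides into the endoplasmic reticulum, had 278 CPM (215 to 332) in nutlin cells, against 34.3 CPM (33.6 to 42.8) in untreated cells and rose by 2.95 ± 0.07. Tapbp, its tether to class I molecules, rose by 1.90 ± 0.07, and the class I genes H2-M3 and H2-K1 rose by 2.11 ± 0.14 and 1.81 ± 0.06, with near-identical relatives that may share reads. B2m, the common light chain, rose by 1.12 ± 0.04. The members that fell were not class I chains: Ciita, the class II master regulator (-1.15 ± 0.15), the immunoproteasome subunits Psmb10 (-1.06 ± 0.09) and Psmb8 (-0.65 ± 0.07), H2-Ab1 (-0.26 ± 0.07) and Erap1 (-0.13 ± 0.04).

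Of 22 tested genes of the mature B list 8 rose, near the share over all genes, and 13 fell, with 3 higher and 1 lower past 1 in every construct. Cd69, an early activation antigen, had 59.2 CPM (54.002 to 73.3) in nutlin cells, against 2.61 CPM (1.14 to 3.46) in untreated cells and rose by 4.59 ± 0.17. The costimulatory genes Cd86 and Cd40 rose by 4.50 ± 0.42 and 4.30 ± 0.58. Pou2f2, an octamer-binding factor, changed by -1.73 ± 0.14. Ighm, the mu heavy chain gene, rose by 0.61 ± 0.04 to 3121 CPM (2802 to 3253) in nutlin cells, against 2022 CPM (1872 to 2159) in untreated cells. In the early B list 12 of 16 fell and 2 rose, with 2 lower past 1 in every construct, and without the control pair 4 rose. Igll1 and Vpreb1 encode the surrogate light chain of the pre-B cell receptor. Igll1 had 20.8 CPM (8.42 to 42.1) in nutlin cells, against 76.8 CPM (52.4 to 185) in untreated cells, a change of -2.03 ± 0.11, and Vpreb1 changed by -1.60 ± 0.08. Vpreb1 has a near-identical copy, Vpreb2, and its untreated and nutlin ranges overlapped over the constructs. The recombinase genes moved apart, Rag2 by -1.28 ± 0.18 and Rag1 by 0.44 ± 0.07. Of 5 tested plasma cell markers 4 fell, 1 of them past 1 in every construct, led by Derl3 (-1.46 ± 0.13). Irf4, the most abundant, was at 374 CPM (272 to 429) in nutlin cells, against 797 CPM (711 to 863) in untreated cells. In bulk samples, fewer cells of a type and less RNA per cell cannot be told apart.

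ATF4 stress genes rose in 20 of 23 and fell in 3, with 12 higher past 1 in every construct and a median of 1.53. ATF4 is the transcription factor of the integrated stress response, which adapts amino acid supply. Atf3, a related factor, had 72.8 CPM (52.5 to 103) in nutlin cells, against 0.323 CPM (0.152 to 0.88) in untreated cells and rose by 7.39 ± 0.30. Trib3, a pseudokinase, had 60.001 CPM (39.8 to 78.5) in nutlin cells, against 0.63 CPM (0.304 to 1.43) in untreated cells and rose by 6.17 ± 0.32. Chac1, a glutathione-degrading enzyme, rose by 2.95 ± 0.24 and the amino acid enzyme Asns by 1.65 ± 0.06. Ddit3, the factor CHOP, rose by 3.40 ± 0.08, although it overlaps 2 other genes. The members that fell, Hspa5 (-0.85 ± 0.04), Xbp1 (-0.55 ± 0.07) and Phgdh (-0.18 ± 0.05), comprise an endoplasmic reticulum chaperone, a factor of the unfolded protein response and a serine synthesis enzyme.

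Sterol synthesis genes fell together. Of 24 tested, 22 fell, against 39.4% of all genes, and 10 fell past 1 in every construct, against 2.42% of all genes. Sqle, squalene epoxidase, had 31.99, 30.8, 33.6, 30.03 and 40.3 CPM with G280, I192S, R246Q, R270H and V170M and 23.7 CPM with the control after nutlin and 98.4, 121, 113, 113, 124 and 114 CPM untreated, in the same order. The control was the lowest after nutlin. The change was log2 -1.85 ± 0.08, adjusted p = 4.69e-11. Hsd17b7 fell by 2.04 ± 0.10 and Fdps, farnesyl diphosphate synthase, by 1.97 ± 0.09. Only Fdft1 rose (log2 0.33 ± 0.09, adjusted p = 0.00586), and it overlaps Ctsb.

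Glycolysis and hypoxia genes fell in 19 of 30 and rose in 6, with 12 lower past 1 in every construct and a median of -0.96. Many of these genes are targets of the hypoxia-inducible factor HIF1. Bnip3, which marks mitochondria for autophagy, had 2.33 CPM (1.49 to 3.22) in nutlin cells, against 20.8 CPM (7.21 to 31.03) in untreated cells and fell by 2.95 ± 0.27. Its pair differences ranged widely, -3.95 to -1.29, with G280 nearest to 0. Ankrd37 fell by 3.38 ± 0.24 and the lactate exporter gene Slc16a3 by 3.98 ± 0.52, both overlapping another gene. Ldha, lactate dehydrogenase, had 409.8 CPM (325 to 524) in nutlin cells, against 1643 CPM (1433 to 1769.9) in untreated cells and fell by 1.95 ± 0.07. Gapdh fell by 1.61 ± 0.17 and Pgam1 by 1.88 ± 0.08. The Gapdh value rests on few reads, 3.75 CPM (1.68 to 5.37) in nutlin cells, against 10.9 CPM (8.97 to 14.6) in untreated cells. Hk1, a hexokinase, went the other way (2.16 ± 0.10), as did Pfkp (0.96 ± 0.05), Vegfa (0.64 ± 0.07), Pdk1 (0.52 ± 0.13), Hif1a itself (0.46 ± 0.05) and Slc2a3 (0.42 ± 0.07). The window of Bnip3 is shown for the core of the hypoxia response element, searched as ACGTG on both strands. It was chosen from those that hold the core, and overlapping matches are in capitals 108 to 103 bases before the start.
Bnip3 (chr7:138909457-138909756 of GRCm38.p6, - strand): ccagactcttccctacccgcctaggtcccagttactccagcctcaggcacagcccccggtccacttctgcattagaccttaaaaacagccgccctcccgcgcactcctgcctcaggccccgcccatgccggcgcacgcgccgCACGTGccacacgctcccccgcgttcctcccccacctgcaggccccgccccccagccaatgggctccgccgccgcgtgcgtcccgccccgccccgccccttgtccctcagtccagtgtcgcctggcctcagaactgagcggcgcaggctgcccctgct
The core occurred in 20 of 28 genes of the list with a window (71.4%), against 30.4% of the tested genes with one and 33.7% of the shared fallers. Its share varied over other lists, from 15 of 27 genes of the MYC network and ribosome biogenesis (55.6%) to 3 of 29 interferon response genes (10.3%), as examples.

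Cell cycle genes were lower, more so for mitosis than for replication. Of 36 tested mitosis genes 32 fell and 1 rose, with 9 lower past 1 in every construct and a median of -0.77. Ccnb1, cyclin B1, had 23.5 CPM (17.1 to 26.1) in nutlin cells, against 68.5 CPM (60.3 to 81.6) in untreated cells and fell by 1.61 ± 0.08. Ube2c, a ubiquitin-conjugating enzyme of the anaphase-promoting complex, fell to 37.2 CPM (30.2 to 42.8) in nutlin cells, against 109.9 CPM (94.8 to 123) in untreated cells, a change of -1.56 ± 0.08. Kif20a, a mitotic kinesin that overlaps 2 other genes, fell by 1.56 ± 0.05 and the phosphatase gene Cdc25b by 1.49 ± 0.10. Ndc80, of the outer kinetochore, was the only member that rose (log2 1.05 ± 0.05, adjusted p = 1.13e-10). Of 43 replication and G1/S genes 27 fell and 5 rose, none past 1 in every construct, with a median of -0.31. E2f2 and E2f3, which drive S phase, fell by 1.17 ± 0.15 and 1.17 ± 0.06, Fen1, the flap nuclease, by 1.11 ± 0.09 and Rrm2, a subunit of ribonucleotide reductase, by 0.98 ± 0.06. Those that rose were Pola1 (0.37 ± 0.04), Cdt1 (0.36 ± 0.05), Mcm10 (0.33 ± 0.04), Lig1 (0.21 ± 0.05) and Mcm6 (0.11 ± 0.04). Mcm6 lost its call without the G280, I192S, R246Q or R270H pair.

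The window of Ube2c, which fell past 1 in every construct, is an example of the cell cycle homology region. This element of mitotic promoters was searched as TTTGAA on both strands, and the window was chosen from those that hold it. Capitals mark the match, 29 to 24 bases before the start.
Ube2c (chr2:164769679-164769978 of GRCm38.p6, + strand): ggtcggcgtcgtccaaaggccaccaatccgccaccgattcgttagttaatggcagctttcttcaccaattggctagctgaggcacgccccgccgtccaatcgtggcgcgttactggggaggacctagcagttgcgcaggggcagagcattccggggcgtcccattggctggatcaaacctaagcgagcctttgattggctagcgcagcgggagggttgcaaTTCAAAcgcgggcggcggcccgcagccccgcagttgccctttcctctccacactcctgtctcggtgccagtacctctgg
The homology region occurred in 21 of 29 mitosis genes with a window (72.4%), against 14.3% of the tested genes with one. The 205 shared fallers held it in 17.1%.

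Myc, whose transgene drives these tumours, had 3203 CPM (3081 to 3879.96) in nutlin cells, against 2383 CPM (2243 to 2477) in untreated cells. It rose slightly in all 6 pairs (log2 0.49 ± 0.04, adjusted p = 6.22e-08). Reads of the transgene and of the endogenous Myc gene are not told apart by these counts. Of 34 tested genes of the MYC network and ribosome biogenesis 25 fell and 5 rose, 1 of them in each direction past 1 in every construct, with a median of -0.35. Over all genes 7.66% rose and 2.42% fell past 1 in every construct. Mxd1, a partner of MAX that opposes MYC, rose by 2.05 ± 0.08 and Mxd4 by 0.70 ± 0.07. Mnt, another such partner, fell by 1.05 ± 0.05, and Mxd3, which overlaps Prelid1, by 2.66 ± 0.35. Nop58 and Polr1c rose by 0.21 ± 0.04 and 0.36 ± 0.06, and Nme1 fell by 1.02 ± 0.07.

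**Figure D3:**
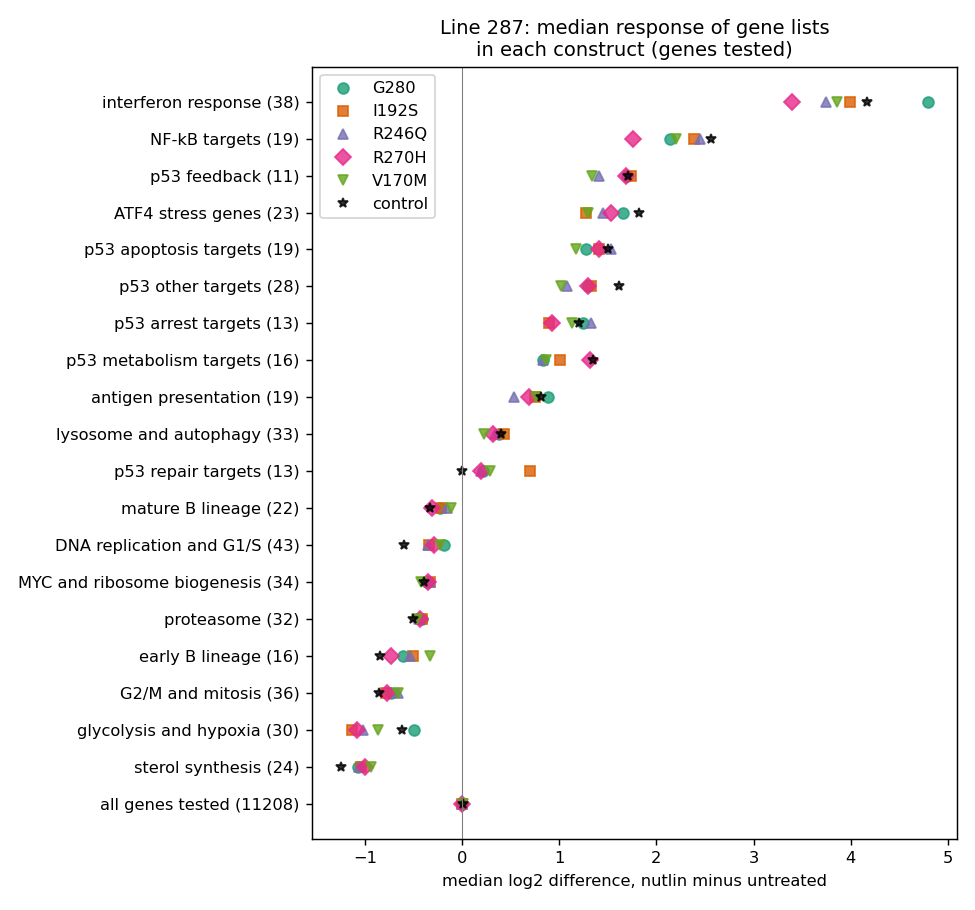
Median pair difference (log2, nutlin minus untreated) of each gene list in each of the 6 constructs of line 287, with the number of genes tested. The interferon response lies farthest to the right in every construct (3.40 to 4.80), the sterol, glycolysis and mitosis lists lie left of 0 in all 6, and all genes tested lie at about 0.

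Some genes outside the lists also stood out by the naming rule. Npffr1, a neuropeptide FF receptor gene, had 90.05 CPM (45.4 to 129.6) in nutlin cells, against 0.108 CPM (0 to 0.456) in untreated cells and rose by 9.33 ± 0.57. Among those that fell most, Lpar5, a receptor for lysophosphatidic acid, had 2.33 CPM (1.25 to 4.43) in nutlin cells, against 18.02 CPM (14.996 to 21.5) in untreated cells and fell by 2.81 ± 0.17. Id3, an inhibitor of E proteins, fell by 2.61 ± 0.18, the fatty acid carrier gene Fabp5 by 2.76 ± 0.20, the kinase gene Camk4 by 2.41 ± 0.14, Tmem132e by 2.43 ± 0.16 and Gas7 by 2.37 ± 0.09. Utp14b, which overlaps Acsl3, fell by 2.47 ± 0.12. The kappa variable segments Igkv1-88 and Igkv9-124, which have near-identical relatives, fell by 2.54 ± 0.20 and 2.43 ± 0.22.

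Among shared genes with a mean of at least 10 CPM in 1 treatment, those whose response was most alike over the 6 constructs rose moderately. Pxk ranged over 1.26 to 1.39, Rnf166 over 1.02 to 1.16, Maml2, a coactivator of Notch, over 1.38 to 1.53, Rad54b, a recombination factor, over 1.36 to 1.54 and Runx1, a blood cell transcription factor, over 1.34 to 1.496. Rnf166 overlaps Ctu2, so its counts are uncertain. At the same level limit, those with the widest spread were Cbs, cystathionine beta-synthase, with 2.03 to 5.77, Zfp750 with 2.91 to 6.75, Bbs7 with 2.71 to 5.61, Micall2 with 5.74 to 8.58 and Ak1 with 5.03 to 8.28. All 10 passed 1 in every construct, which the rule for naming them required.

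The response of 287 was set against those of AH47A and 621 in a model of all 36 libraries with a nutlin term per line. Of 11894 genes tested, 6177 (51.9%) passed the test of 287 minus the mean of the other lines, 2890 (24.3%) with a higher and 3287 (27.6%) with a lower response in 287. Of 854 shared risers tested here, 646 (75.6%) had a higher response in 287 and 5 a lower one. Of the 271 shared fallers 250 had a lower response in 287 and none a higher one. These members were chosen on the 287 libraries, which also enter the test, so the counts are a description. Counted anew in this fit of 11894 genes, 858 were higher past 1 in all 6 constructs in 287, 226 in AH47A and 224 in 621. The 189 that 287 shared with AH47A were 22.03% of its genes and 83.6% of those of AH47A. The 199 shared with 621 were 23.2% of the 287 genes and 88.8% of those of 621. All 3 lines shared 120 (13.99% of the 287 genes), and 590 passed in 287 alone. A gene that passed in 287 alone need not be unchanged in the other lines. The 854 shared risers tested here had a median response of 2.17 in 287, 0.84 in AH47A and 0.92 in 621. In the lower direction 287 had 306 in this fit, AH47A 17 and 621 26, with 9 and 10 in common with 287.

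By gene lists the lines differed most in the interferon response, whose median of the mean pair differences was 3.86 in 287, against 1.37 in AH47A and 1.67 in 621. Of its 38 members 25 had a higher response in 287 and none a lower one. For NF-kB targets the medians were 2.39 in 287, against 1.18 in AH47A and 0.58 in 621, with 14 of 19 higher in 287. ATF4 stress genes had a median response difference of 0.93, with 19 of 23 higher and 2 lower in 287. For mitosis genes they were -0.80 in 287, against -0.08 in AH47A and -0.10 in 621, with 32 of 36 lower in 287. Sterol genes had -1.10 in 287, against -0.36 in AH47A and -0.73 in 621, with 17 of 24 lower in 287. For glycolysis and hypoxia the medians were alike, -0.87 in 287, against -0.67 in AH47A and -0.75 in 621, with 10 members higher and 11 lower in 287. Proteasome genes had -0.51 in 287, against -0.00051 in AH47A and -0.18 in 621, with 25 of 32 lower in 287.

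Of the p53 genes, Mdm2 had 1037 ± 232 CPM after nutlin against 164 ± 10.5 CPM untreated in 287 (mean ± SD, n = 6). It had 252 ± 98.3 CPM after nutlin against 77.5 ± 2.13 CPM untreated in AH47A and 269 ± 62.7 CPM after nutlin against 83.7 ± 3.58 CPM untreated in 621. Its response in 287 was higher than the mean of the others (0.99 ± 0.18, adjusted p = 0.000181). Cdkn1a had 441 ± 106 CPM after nutlin against 4.60 ± 1.05 CPM untreated in 287, 216 ± 97.6 CPM after nutlin against 0.672 ± 0.306 CPM untreated in AH47A and 152 ± 49.8 CPM after nutlin against 3.70 ± 1.497 CPM untreated in 621. Its response in 287 did not differ from the mean of the others by the test (-0.30 ± 0.22, adjusted p = 0.247), and it lay between them. Without the I192S pairs the difference was -0.46 (edgeR adjusted p = 0.0421). It was -1.77 against AH47A alone (adjusted p = 3.36e-05) and 1.17 against 621 alone (adjusted p = 3.72e-05). Myc had a slightly higher response in 287 (0.23 ± 0.08, adjusted p = 0.0138), lost without the I192S pairs or against 621 alone (adjusted p = 0.0935 and 0.611).

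Genes with the largest difference between lines were mostly near silent in untreated 287 cells. Adm, the gene of the vasodilator peptide adrenomedullin, had 26.4 ± 4.17 CPM after nutlin against 0.155 ± 0.168 CPM untreated in 287. In AH47A it had 6.58 ± 2.77 CPM after nutlin against 2.10 ± 0.566 CPM untreated and in 621 4.34 ± 1.54 CPM after nutlin against 3.42 ± 1.87 CPM untreated, so that 287 began lower and ended higher than both (difference 6.27 ± 0.78, adjusted p = 1.21e-10). Gdf11, a TGF-beta family ligand, had 142 ± 38.8 CPM after nutlin against 1.53 ± 0.554 CPM untreated in 287, 21.1 ± 5.67 CPM after nutlin against 11.3 ± 1.59 CPM untreated in AH47A and 10.7 ± 1.96 CPM after nutlin against 6.999 ± 1.36 CPM untreated in 621 (difference 5.76 ± 0.19, adjusted p = 2.4e-21). Mycl, a MYC family gene, differed by 5.23 ± 1.55, adjusted p = 1.28e-05, and Plekhg5 by 5.15 ± 0.43, adjusted p = 6.34e-12. Bhlhe40, a circadian and stress repressor, rose in 287 yet remained lower than in AH47A, with 8.77 ± 2.88 CPM after nutlin against 0.25 ± 0.174 CPM untreated in 287 and 45.9 ± 18.3 CPM after nutlin against 53.01 ± 18.8 CPM untreated in AH47A. Its difference from the mean of AH47A and 621 was 5.18 ± 0.68, adjusted p = 2.55e-09, and the levels of 621 are not given. Mx1, an antiviral GTPase, differed by 4.29 ± 1.32, adjusted p = 0.0376, and Gbp9, an interferon-induced GTPase, by 4.18 ± 1.30, adjusted p = 0.0458. Both lost the call without several single constructs, Mx1 without each one but R270H and Gbp9 without G280, I192S, the control or R246Q. Klf8 had 43.1 ± 12.9 CPM after nutlin against 2.37 ± 1.05 CPM untreated in 287, and 621 had 0 counts after nutlin, so no fold is given.

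In the other direction, Dusp5, a phosphatase of ERK, had 3.83 ± 0.916 CPM after nutlin against 15.9 ± 3.49 CPM untreated in 287, against 2.65 ± 0.831 CPM after nutlin against 2.45 ± 0.749 CPM untreated in AH47A (difference -1.91 ± 0.19, adjusted p = 3.53e-09). Id3 had 2.46 ± 0.756 CPM after nutlin against 15.3 ± 3.36 CPM untreated in 287, and AH47A moved the other way with 4.61 ± 1.69 CPM after nutlin against 2.78 ± 0.566 CPM untreated (difference -2.09 ± 0.24, adjusted p = 3.74e-08). Lpar5 differed by -1.96 ± 0.21, adjusted p = 8.26e-09. Lrp1, an endocytic receptor, rose in all lines but least in 287 (difference -3.50 ± 0.67, adjusted p = 3.76e-06), where it was already at 44.3 ± 18.5 CPM after nutlin against 24.9 ± 16.6 CPM untreated. Gas7 (-2.55 ± 0.51, adjusted p = 0.000103), Slc16a3 (-2.12 ± 0.71, adjusted p = 0.00805), F13a1 (-2.34 ± 0.77, adjusted p = 0.0108) and Fam171a1 (-2.49 ± 1.13, adjusted p = 0.0146) rest on low levels in 1 line or more. F13a1 lost its call without the G280 or R270H pairs and Fam171a1 without those of I192S. Neither was tested in 287 alone.

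**Figure D4:**
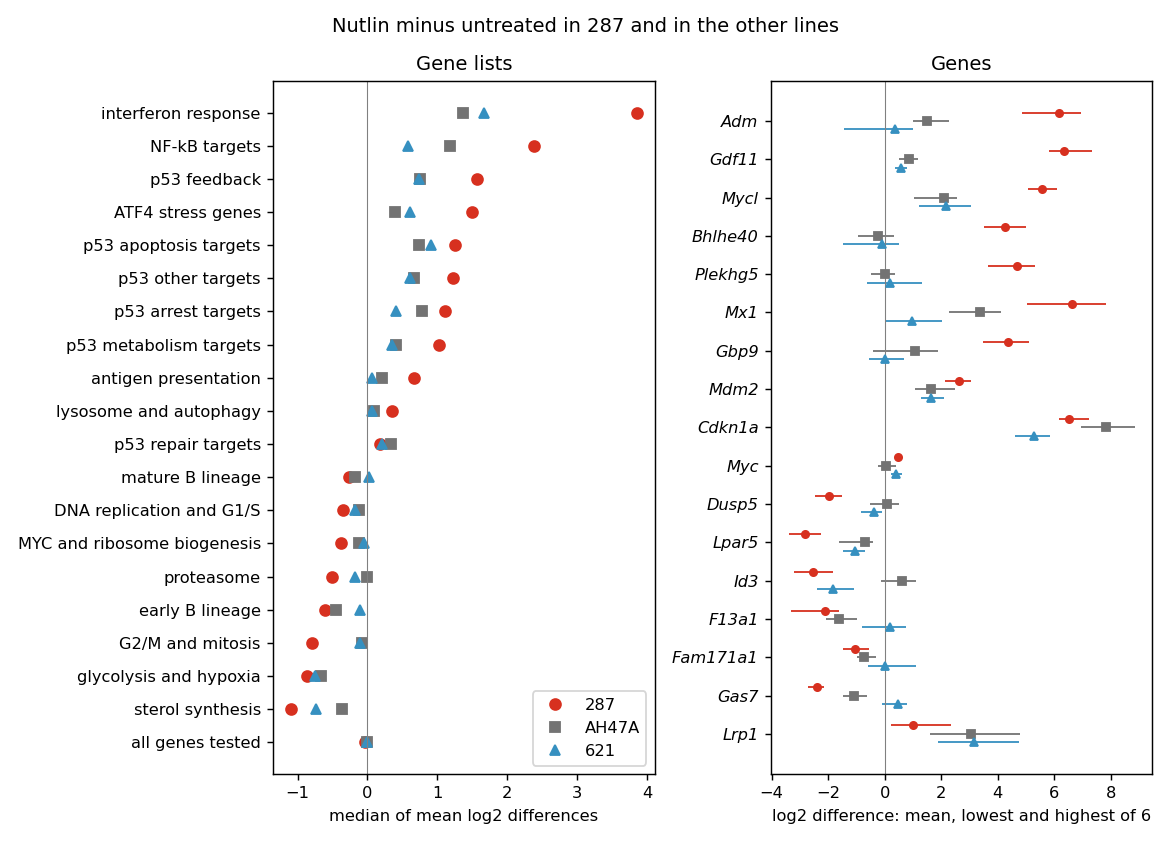
Left, median over each gene list of the mean pair difference (log2, nutlin minus untreated) in 287, AH47A and 621. Right, mean of the 6 pair differences of named genes in each line, with bars to the lowest and highest construct; 287 lies apart from the other lines for Gdf11 (6.35, against 0.85 in AH47A and 0.59 in 621) and between them for Cdkn1a (6.51, against 7.83 and 5.29).

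Within 287, the response of the 5 mutants was set against that of the control, which is a single pair. Of 11208 genes 67 (0.598%) passed the test, 51 with a higher value in the mutants (0.455%) and 16 with a lower one (0.143%). In all 67 every mutant lay on one side of the control, which a test against a single pair favours, and the mutant mean was nearer to 0. Of the 51, 48 were genes that fell after nutlin, and of the 16, 14 were genes that rose. The number of calls depended on single mutants, with 6 higher and 2 lower without R246Q, 27 and 5 without I192S, and 199 and 126 without V170M.

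Trp53 differed most clearly (-1.13 ± 0.11, adjusted p = 5.56e-05), with -0.59 to -0.34 over the 5 mutants, against 0.62 in the control. How much of these reads comes from the construct cannot be read from the counts. C78197 differed by 1.41 ± 0.25, adjusted p = 0.0204, with -2.44 to -1.71 over the 5 mutants, against -3.52 in the control. Il7r, the interleukin 7 receptor of early B cells, had -0.99 to -0.44 over the 5 mutants, against -2.08 in the control (1.30 ± 0.19, adjusted p = 0.0146). The metalloprotease gene Mmp14 had -1.86 to -1.51 over the 5 mutants, against -2.88 in the control, and Pole2, a subunit of DNA polymerase epsilon whose gene overlaps Klhdc1, had -1.23 to -0.58 over the 5 mutants, against -2.05 in the control. Myo9a and Nav2 differed by 1.26 ± 0.29, adjusted p = 0.0447 and 1.07 ± 0.17, adjusted p = 0.0146. Among genes with a smaller rise in the mutants, Lrp1 had 0.25 to 1.18 over the 5 mutants, against 2.36 in the control, Ick, a ciliary kinase, 1.66 to 2.36 over the 5 mutants, against 3.26 in the control and Zfp385a, a p53 cofactor, -0.21 to 0.37 over the 5 mutants, against 1.44 in the control. The small RNA hosts Snhg6 and Epb41l4aos differed by -1.15 ± 0.23, adjusted p = 0.0353 and -0.96 ± 0.21, adjusted p = 0.0432. Mdm2 (-0.49 ± 0.23, adjusted p = 0.356) and Cdkn1a (-0.39 ± 0.34, adjusted p = 0.628) did not pass this test.

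**Figure D5:**
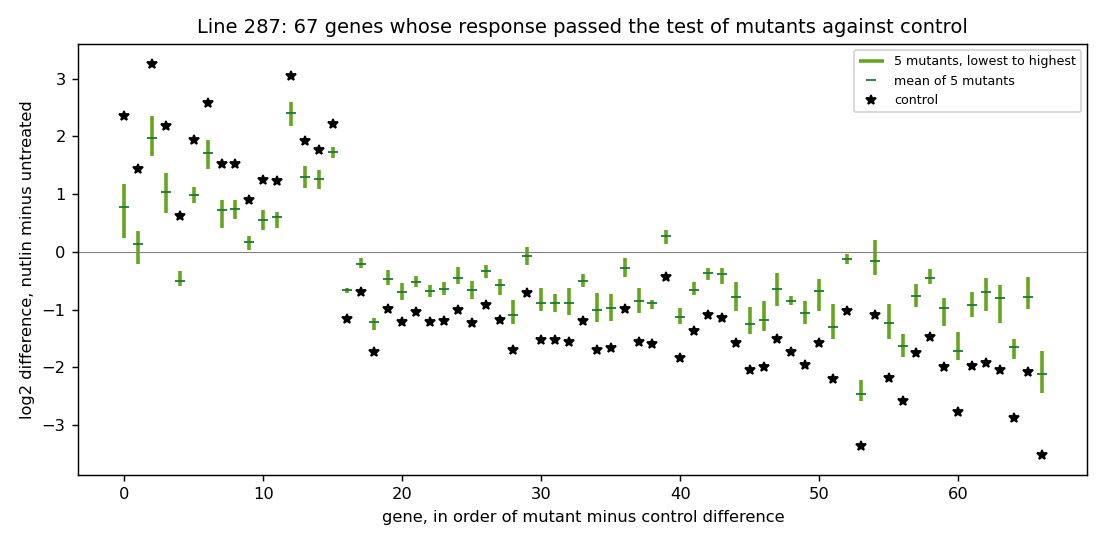
Log2 difference, nutlin minus untreated, of the 67 genes of line 287 whose response passed the test of mutants against control, in order of that difference. Bars span the 5 mutants, ticks give their mean and stars the control; each star lies outside its bar and farther from 0 than the mutant mean.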

How the data were processed

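RNA sequencing counts of 12 libraries of line 287, among 36 of 3 lines, were analysed. The deposited values are unnormalised read counts for 27179 mouse genes, made with featureCounts after bcl2fastq 1.8.4 on mm10 (GRCm38), per the submitters' processing notes. Neither aligner nor annotation nor strandedness is stated in the labels, so overlapping genes cannot be told apart. The per-sample files were identical to the table columns (36 of 36). Identifiers without a symbol held 0.300% of the counts of 287.

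Counts were fitted in edgeR 4.0.16 (R 4.3.3) with TMM scaling, filterByExpr (minimum count 10) and a robust quasi-likelihood model of construct and treatment. This left 11208 genes with 99.9% of the counts, on 5 residual degrees of freedom, and a biological coefficient of variation of 6.69%. Calls have a Benjamini-Hochberg adjusted p under 0.05. Standard errors are Wald errors from the fit. Pair differences use log2 CPM with a prior count of 2. Lines were compared in a model of all 36 libraries (11894 genes) with a block for line by construct, and mutants with the control by an interaction term on 4 residual degrees of freedom. Pairs come from the construct in the labels. As a check, deviations from the treatment means correlated within each pair (r from 0.105 to 0.518, each highest with its own construct). On simulated data the fits recovered 94.9% (response), 79.8% (lines) and 73.7% (mutants against control) of genes changed by 1 on the log2 scale. The simulation drew its noise from the fitted model and changed few genes, in both directions. For the response these were 98 genes by 1 and 96 by 2, of 11119. In the data 79.1% of genes were called, so these rates do not cover that setting.

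The members and the 29 gene lists were chosen with earlier results of these data known. Genes named are Trp53, Mdm2, Cdkn1a and Myc, the 12 highest and 12 lowest shared changes, the up to 4 largest changes of each list and its members against the majority, the 8 and 8 largest line differences, the 6 and 6 largest mutant differences and the 5 steadiest and 5 most variable shared genes (all but the list members at a mean of at least 10 CPM in 1 group), and other list members serve as examples. Some genes that this rule names are not reported here, though they count in the totals of their lists. Promoter windows and coordinates are from RefSeq (GRCm38.p6), and motif counts leave out windows on chromosome 18. Alternatives were RLE scaling, no filter, DESeq2 1.42.0, no block, other prior counts and thresholds, and leaving out each construct.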

Additional observations from a re-analysis of the deposited data

Results flagged for a closer look

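In 219 named genes, 12 had 1 pair whose log2 difference stood apart from the other 5 by Dixon's criterion, which chance gives in about 1 of 20 groups. In 9 of the 12 it was the control pair. Those were Trp53 (0.62), Phgdh (0.0115), Pola1 (0.19), H2-K1 (2.22), Il7r (-2.08), Mmp14 (-2.88), Nav2 (-1.97), Zfp385a (1.44) and Epb41l4aos (1.94). Of these, Trp53, Il7r, Mmp14, Nav2, Zfp385a and Epb41l4aos are among the genes named for the largest differences between mutants and control, so that choice favours a control pair that stands apart. The I192S pair stood apart for Ddx58 (4.53) and Cxcr5 (0.0333), and the R270H pair for Ndc80 (0.89).

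The response of 287 differed from the mean of AH47A and 621 by an interaction test in 18 named genes. The difference was positive for Adm (6.27), Gdf11 (5.76), Mycl (5.23), Bhlhe40 (5.18), Plekhg5 (5.15), Mx1 (4.29), Gbp9 (4.18), Mdm2 (0.99) and Myc (0.23). The fitted value of Klf8 (4.13) depends on the prior count and is no bound, since 621 had 0 counts after nutlin, and its call was lost without the R270H pairs (edgeR adjusted p = 1). The difference was negative for Lrp1 (-3.50), Gas7 (-2.55), Fam171a1 (-2.49), F13a1 (-2.34), Slc16a3 (-2.12), Id3 (-2.09), Lpar5 (-1.96) and Dusp5 (-1.91).

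The mutants differed from the control within 287 in 12 named genes. The difference was positive for C78197 (1.41), Il7r (1.30), Mmp14 (1.27), Pole2 (1.27), Myo9a (1.26) and Nav2 (1.07), and negative for Lrp1 (-1.67), Zfp385a (-1.35), Ick (-1.31), Snhg6 (-1.15), Trp53 (-1.13) and Epb41l4aos (-0.96). The control is a single pair, so its own deviation and the effect of the mutants cannot be told apart.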

How the results depend on the processing

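Counts of called genes in the response of 287 and in the line comparison stayed within 1.5 times their values under all alternatives run. The genes behind the line counts changed more. Of the 6177 calls, 5078 were kept against AH47A alone and 94 changed sign, while 4673 were kept against 621 alone and 144 changed sign. Which direction held more calls also depended on scaling, with 2890 higher and 3287 lower in the main fit but 3180 and 3029 by RLE. Without the replicate block, 4323 genes were higher and 4219 lower after nutlin in 287, and 2655 and 3058 in 287 minus the other lines. Leaving out a construct gave 422 genes at most lower past 1 in all remaining constructs (269 at least), and a threshold of 1.5-fold gave 1565 higher and 1014 lower. For mutants against the control, no filter on low counts gave 314 higher and 203 lower, DESeq2 gave 54 and 19 with 4998 genes without an adjusted p, and leaving out a mutant gave 6 to 199 higher and 2 to 126 lower. That comparison needs the control pair, so it was not run without it. Of 2742 recomputed values of 234 gene results, 2654 kept direction and side of the threshold, 82 lost the call, 5 gained one and 1 reversed, Cdkn1a against 621 alone (1.17). The cause was not tested. Without the block the line difference of Mx1 (edgeR adjusted p = 0.137), Klf8 (0.0586), Gas7 (0.109), F13a1 (0.29) and Slc16a3 (0.201) lost its call. Read depth limits the fold changes of genes with 3 or fewer untreated counts (68 tested, 29 of them at 0). The alternative with library totals alone was chosen after the data had been seen.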

Other observations

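Of 32 tested genes of the proteasome list, which holds subunits and the factor gene Nfe2l1, 24 fell and 4 rose in 287, with a median of -0.48 and none past 1 in every construct. Psmc1, an ATPase of the regulatory particle, fell to 75.6 CPM (68.01 to 81.4) in nutlin cells, against 154 CPM (143 to 164) in untreated cells (log2 -1.03 ± 0.05, adjusted p = 9.06e-11). Of the 4, Nfe2l1, whose product induces proteasome genes, rose by 0.88 ± 0.05. Lysosome and autophagy genes rose in 22 of 33 and fell in 6, against 39.7% and 39.4% of all genes, with a median of 0.39. Of the 33, 3 were higher past 1 in every construct, near the share over all genes (7.66%). Wipi1, of the early autophagosome, rose by 3.39 ± 0.30, Tfe3, a factor of lysosome genes, by 1.34 ± 0.06 and Atg12 by 1.33 ± 0.06, while Gla, a lysosomal galactosidase, fell by 0.85 ± 0.15.

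Regulators of DNA methylation and silencing were split, 7 higher and 9 lower of 18, near the share over all genes. Past 1 in every construct 1 was higher, against 7.66% of all genes. Tet2, which oxidises methylcytosine, had 235 CPM (218 to 269) in nutlin cells, against 63.2 CPM (61.2 to 76.03) in untreated cells and rose by 1.84 ± 0.05 in pairs that spanned 1.64 to 1.93. Eed, a Polycomb subunit, rose by 0.73 ± 0.04. Uhrf1, which recruits maintenance methylation, fell by 0.97 ± 0.10, and Dnmt3b fell by 0.80 ± 0.10. Among the few tested markers of other cells, Zap70 rose by 1.72 ± 0.11, Lck fell by 1.30 ± 0.17 and Itgam rose by 1.41 ± 0.14.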
